A study of Mus musculus with 29 samples.

Results

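The livers of mice whose common bile duct had been tied 21 days earlier were compared with livers of sham-operated mice. The comparison took 9 of the 29 arrays of the series, chosen by their titles alone, namely the 5 arrays of ligated mice (BDL) at day 21 and the 4 arrays of sham-operated mice at day 7. All 9 animals were male C57BL/6N mice with the mark "wt" in their titles, 8 to 10 weeks old per the series' design text and kept on a standard diet, and each array carried RNA of whole liver tissue from an animal with its own number. The labels used here give no sham group at day 21, so the nearest one stood in, and the later day, with the ageing it brings, cannot be told apart from the ligation. The other arrays of the series were 5 each of BDL day 1, day 3 and day 7, 3 of sham day 1 and 2 of sham day 3. BDL day 7 was set beside day 21 where the later day differed from the earlier one. The p-values below set each change against a spread between animals. That spread was estimated within the 7 groups of all 29 arrays, not from these 9 alone.

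Bile acids are made from cholesterol in hepatocytes, taken back up from portal blood by carriers on the sinusoidal membrane and secreted into bile by pumps on the canalicular membrane. When the main duct is closed, bile backs up into the liver, hepatocytes change how they make, take up and export bile acids, and small ducts multiply around the portal tracts. Stellate cells and portal fibroblasts then lay down collagen, and macrophages and other leukocytes collect, so that the ligated liver is widely used as a model of cholestatic fibrosis.

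Values are log2 array values, and a change is the difference of the group means on that scale with its standard error (SE) from a limma fit over all 29 arrays. A gene was called changed at a Benjamini-Hochberg adjusted p under 0.05 over the 14699 genes tested. Values of single animals are given in the order of their replicate numbers, which only name them. A log2 value of 5 served as the filter for dim genes. Where a group mean lies below 5 the measured change has no exact size, and the distance of the other group from 5 is given as the least step.

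The 9 arrays separated by operation. Arrays within the BDL day 21 group correlated at 0.979 to 0.990 over the genes tested, arrays within the sham group at 0.973 to 0.984, and pairs across the groups at 0.924 to 0.952, and the first principal component held 63.3% of the variance with all ligated livers on one side. The albumin gene Alb, a hepatocyte marker, averaged 14.11 ± 0.06 (SD, n = 4) in sham livers and 14.17 ± 0.03 (SD, n = 5) in ligated livers. Some animals stood apart for some genes. BDL day 21 replicate 1 had clock genes near the sham level and some raised intestinal genes, and BDL day 21 replicate 2 had some raised skeletal muscle genes. Sham day 7 replicate 1 had the highest collagen values of its group, and sham day 7 replicates 2 and 3 had higher acute phase values than sham day 7 replicate 4. Results that rest on them are given with and without them. Each liver of the groups compared was also left out in turn, and where a call was lost in some of these fits the text says in how many, or over what range for a set of genes, with the highest adjusted p among them. Where sham day 1 or sham day 3 in place of sham day 7 ended a call that had held in these fits, the adjusted p there is given too.

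Of the 14699 genes, 3698 (25.2%) were called, 2537 higher (17.3%) and 1161 lower (7.9%) in the ligated livers, and 609 of the rises (4.14% of genes) and 162 of the falls (1.1%) were at least 2-fold. The median change over all genes tested was 0.02. Every ligated liver lay above every sham liver for 17% of the genes and below every one for 7.93%. With the arrays shifted to a shared median in place of the deposited scaling, 1989 genes were higher and 1624 lower, so the balance between rises and falls depended on the scaling. Without BDL day 21 replicates 1 and 2, 3204 genes were called.

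The gene that rose most was Sprr1a, which encodes a small proline-rich protein that is crosslinked into the envelope of stressed epithelial cells. It read 4.40, 4.64, 4.42 and 5.06 in the sham livers and 9.43, 10.12, 9.95, 10.88 and 11.06 in the ligated livers, a change of 5.66 (SE 0.42, limma adjusted p = 7.41e-11) with a least step of 5.29. Every ligated liver lay more than 4 log2 units above every sham liver. Cd14, the lipopolysaccharide co-receptor, rose from 5.41 ± 0.20 (SD, n = 4) to 9.80 ± 0.24 (SD, n = 5), by 4.40 (SE 0.31), with no overlap. Sult1e1, the oestrogen sulfotransferase, was below 5 in all 4 sham livers and read 9.47, 8.40, 9.25, 7.88 and 7.50 in the ligated livers, a least step of 3.50. Several of the next genes are known from macrophages. Gpnmb, a lysosomal glycoprotein, read 4.93, 5.02, 5.46 and 4.15 in sham and 9.07, 7.67, 8.54, 8.29 and 8.17 in ligated livers, a least step of 3.35. Chil3, a chitinase-like protein of activated macrophages, rose by a least step of 2.41, Mfge8, a bridge for engulfing dying cells, by 3.42 on the log2 scale, Cybb, a subunit of the phagocyte oxidase, by 3.20, Lpl, lipoprotein lipase, by 3.02, and Atp6v0d2, a subunit of the lysosomal proton pump, by 2.97. The rest of the 15 largest non-overlapping rises were Cpe (3.19), Cib3 (3.18), Orm3 (3.16), Elf3 (least step 2.30), Mtmr11 (least step 2.74) and the chemokine gene Cxcl14 (2.98). Orm3, an acute phase gene, was uneven among sham livers at 4.48, 7.50, 9.03 and 5.80, and its change was 2.42 without sham replicate 1 and 3.94 without sham replicate 3. With sham day 3 or day 1 as control it was 1.56 or 1.16 and not called (limma adjusted p = 0.0864 and 0.0989). Cpe changed by 1.70 and Cib3 by 3.92 with sham day 3 as control, both called (limma adjusted p = 0.00783 and 9.69e-08). In bulk tissue a higher share of cells of a type and more RNA per cell cannot be told apart, which holds for every marker below.

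The largest falls measured more than the largest rises, and 7 of the 15 genes that led them, Slco1a1, Hsd3b5, Elovl3, Mup21, Cyp4a12a, Moxd1 and Nudt7, are on the list of male-biased hepatocyte genes described further on. Sult2a8, a hepatic bile acid sulfotransferase, read 10.49, 11.17, 11.11 and 11.30 in sham livers and 3.53, 3.42, 3.73, 4.14 and 3.59 in ligated livers. The change was -7.33 (SE 0.25, limma adjusted p = 3.22e-18), at least 6.02 down to the filter. Slco1a1, an organic anion carrier of the sinusoidal membrane, read 10.61 to 11.04 in sham and 3.45 to 4.24 in ligated livers, a change of -6.93 (SE 0.34) with a least step of 5.85. Hsd3b5, a steroid dehydrogenase of male liver, changed by -6.68 with a least step of 4.67. Elovl3, a fatty acid elongase, read 9.72, 11.79, 11.22 and 12.02 in sham and 4.67, 4.76, 5.49, 5.68 and 5.83 in ligated livers, a change of -5.90 (SE 0.43). In none of these genes did a ligated liver come near a sham liver. The urinary protein genes Mup21 (least step 3.45) and Mup3 (-3.63), the fatty acid hydroxylase gene Cyp4a12a (least step 3.82) and the fatty acid binding protein gene Fabp1 (-3.65) followed, then Moxd1 (least step 2.32), the carbonic anhydrase gene Car3 (-3.36), Keg1 (-3.20, or -2.20 with the mean of its rows), Nudt7 (-3.12), the carboxylesterase gene Ces3b (-3.06), Cyp8b1 (-3.02) and Cyp2d13 (-2.86). Mup, Cyp2d, Cyp4a and Ces genes have near-identical neighbours, and probes may read more than 1 of them. Moxd1 was uneven among sham livers at 4.29, 9.28, 7.75 and 7.98, the low value being that of replicate 1, and its measured change of -3.38 was -4.39 without that liver and -2.73 without replicate 2.

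**Figure D1:**
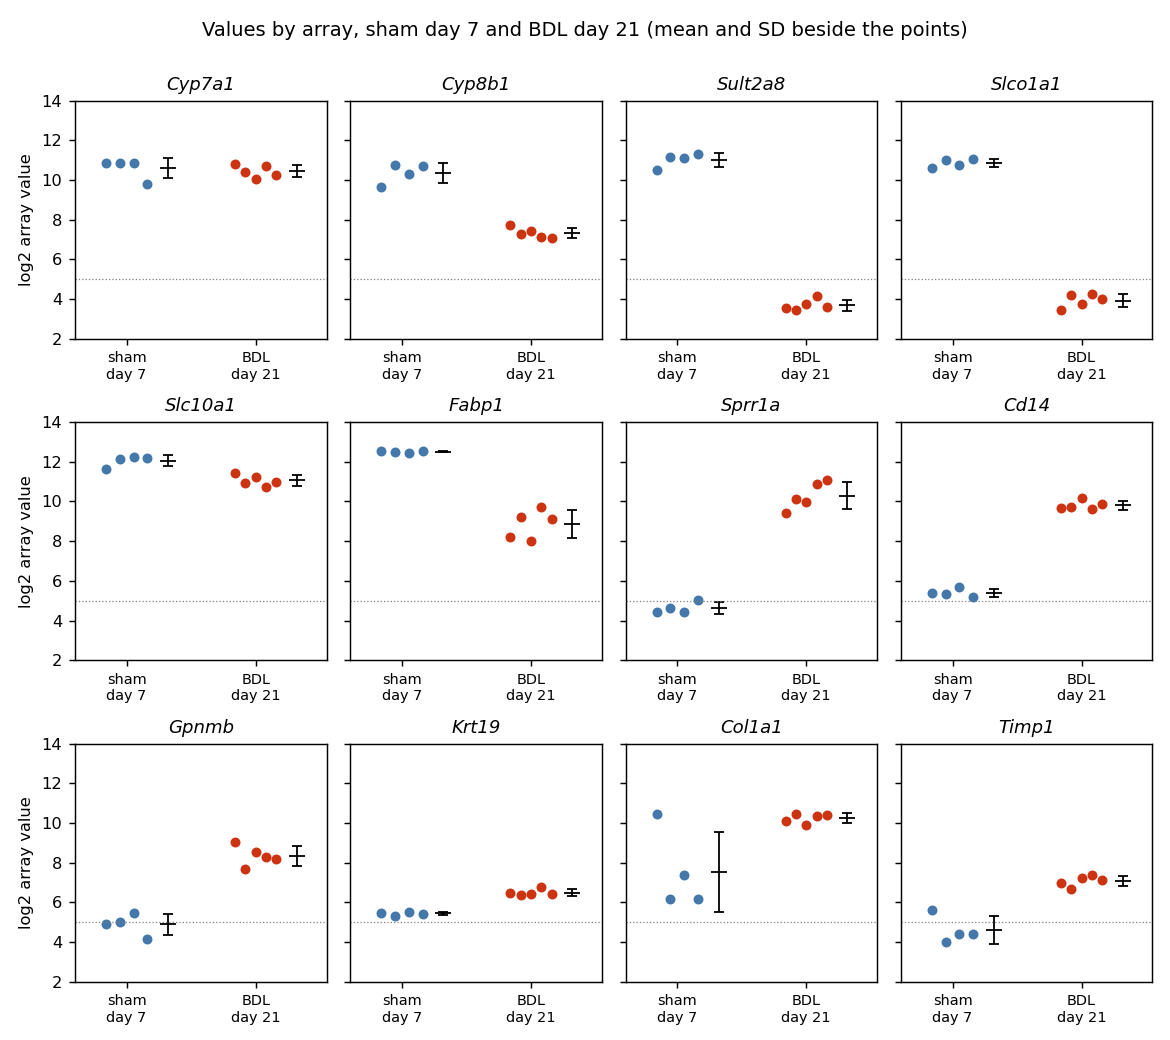
Log2 array value (vertical axis) of 12 genes in the 4 sham day 7 livers (blue) and the 5 BDL day 21 livers (red), with the group mean and SD beside the points and the filter at 5 as a dotted line. Sult2a8 and Slco1a1 fell below 5 in all 5 ligated livers. Cyp7a1 overlapped between the groups through sham replicate 4 alone, and the Col1a1 value of sham replicate 1, 10.43, lay among the ligated livers.

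Promoters were read for some of the genes that rose or fell, to show sequence beside the response. Promoter windows run from 250 bases before to 50 bases after the annotated start, from RefSeq on GRCm38.p6. The AP-1 site TGACTCA, read on the other strand as TGAGTCA, the binding site of Fos and Jun proteins, stood in the windows of 52 of the 457 genes with a window that rose at least 2-fold (11.4%), of 5.03% of the genes tested and of 5.95% of all 27025 genes with a window. The HNF1 half-site GTTAAT, read on the other strand as ATTAAC, named for a hepatocyte factor, stood in 20 of the 116 genes with a window that fell at least 2-fold (17.2%), of 5.83% of the genes tested and of 8.24% of all genes. Of the opposite groups, 5.17% of the genes that fell held the AP-1 site and 4.81% of the genes that rose held the HNF1 half-site. Both were kept out of 23 motifs searched on both strands, after the shares of all had been seen, so the shares are a description with no test, and a match is not a bound site. Other motifs of the search also differed in share. The C/EBP motif TTGCNNAA stood in 10.5% of the genes tested, 13.8% of those that rose and 25.9% of those that fell at least 2-fold, and the D-box TTATGTAA, a clock element, in 0.664%, 0.875% and 4.31%. In the same order the ETS motif GAGGAAG stood in 15.8%, 22.1% and 13.8%, the HNF4 motif CAAAGTC in 4.87%, 7.44% and 7.76%, the cell cycle element TTTGAA in 14.2%, 12.0% and 21.6% and the TEAD motif GGAATG in 14.6%, 15.3% and 21.6%. The CCAAT box shown further on was another, and the remaining 14 were the CLEAR motif TCACGTG and the E-box CACGTG within it, the cyclic AMP element TGACGTCA, the E2F motif TTTCGCG, the nuclear receptor motif AGGTCA, the SREBP motif TCACCCCAC, the STAT motif TTCNNNGAA with its stricter form TTCCNGGAA, the antioxidant element TGACNNNGC, the Y box CTGATTGG, which contains the CCAAT box, and the NF-kB, PU.1, X box and full HNF1 motifs. The PU.1 motif contains the ETS motif. Shares differed among these 14 as well. In the same order the NF-kB motif stood in 0.506%, 1.09% and 0% and the PU.1 motif in 0.594%, 1.31% and 0.862%. The full HNF1 motif stood in 0.114%, 0% and 1.72% and the E2F motif in 1.71%, 0.219% and 1.72%. The cyclic AMP element stood in 3.19%, 1.09% and 1.72% and the CLEAR motif in 6.36%, 3.72% and 6.03%. Shown are the windows of Sprr1a, the largest rise, with 2 AP-1 matches in capitals, of Gpnmb with 1, and of Fabp1 and Serpina1e with the HNF1 half-site in capitals. Sprr1a lies on the minus strand at chr3:92485832-92486131, Gpnmb on the plus strand at chr6:49036268-49036567, Fabp1 on the plus strand at chr6:71199629-71199928 and Serpina1e on the minus strand at chr12:103956848-103957147, and each is written 5′ to 3′ along its gene.
Sprr1a: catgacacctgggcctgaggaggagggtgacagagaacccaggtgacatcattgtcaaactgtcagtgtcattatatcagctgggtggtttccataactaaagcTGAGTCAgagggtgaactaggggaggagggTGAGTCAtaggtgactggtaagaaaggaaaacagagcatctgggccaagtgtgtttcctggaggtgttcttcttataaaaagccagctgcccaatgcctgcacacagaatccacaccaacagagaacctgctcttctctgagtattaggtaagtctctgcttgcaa
Gpnmb: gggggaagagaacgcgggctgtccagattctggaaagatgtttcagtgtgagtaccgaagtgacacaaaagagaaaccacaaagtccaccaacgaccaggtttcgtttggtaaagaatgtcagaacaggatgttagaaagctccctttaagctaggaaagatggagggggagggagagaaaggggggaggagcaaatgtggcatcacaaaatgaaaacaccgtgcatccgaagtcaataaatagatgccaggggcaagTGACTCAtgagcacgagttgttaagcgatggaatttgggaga
Fabp1: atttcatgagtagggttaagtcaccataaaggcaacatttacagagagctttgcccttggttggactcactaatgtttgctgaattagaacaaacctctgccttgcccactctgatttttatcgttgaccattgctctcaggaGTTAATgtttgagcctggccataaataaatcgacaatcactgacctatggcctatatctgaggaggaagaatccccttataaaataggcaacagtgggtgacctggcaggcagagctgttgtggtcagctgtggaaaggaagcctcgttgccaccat
Serpina1e: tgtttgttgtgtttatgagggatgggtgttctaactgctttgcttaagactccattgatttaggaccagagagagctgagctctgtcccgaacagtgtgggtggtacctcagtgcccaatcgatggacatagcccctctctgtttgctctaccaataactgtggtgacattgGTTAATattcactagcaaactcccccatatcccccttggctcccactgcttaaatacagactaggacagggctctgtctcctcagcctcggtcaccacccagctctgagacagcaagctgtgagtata
The matches in Sprr1a begin 146 and 116 bases before the start, the match in Gpnmb 8 bases after it, and the half-sites in Fabp1 and Serpina1e 107 and 78 bases before it. The windows of Sult2a8, Slco1a1 and Cyp8b1 hold no GTTAAT. Every window shown holds a match, and Serpina1e is not among the leading falls named above. Cd14 and Atp6v0d2 had no window in the sequences used. Which other leading rises hold the AP-1 site is not given here, so the windows shown do not stand for them. Serpina1e, a gene of the alpha-1-antitrypsin family with near-identical copies, changed by -2.77 (SE 0.18, limma adjusted p = 5.88e-12).

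In bile acid synthesis, enzymes of the later and alternative steps were lower while the first enzyme was not called. Of 15 genes tested, 7 were lower and 2 higher, with a median change of -0.39 against 0.02 over all genes, where 7.9% of all genes were lower and 17.3% higher. Cyp7a1, the rate-limiting hydroxylase of the classical route, read 10.86, 10.87, 10.84 and 9.81 in sham and 10.81, 10.42, 10.06, 10.72 and 10.25 in ligated livers. Its change of -0.14 (SE 0.79) did not pass the test (limma adjusted p = 0.921) and the groups overlapped. The overlap came from sham replicate 4 alone, as the other sham livers lay just above every ligated liver. In fits without 1 liver the change ran from -0.40 to -0.05. Cyp7a1 had averaged 4.29 at BDL day 1 and 7.65 at BDL day 3, and it averaged 11.47 ± 0.28 (SD, n = 5) at BDL day 7. Cyp8b1, the hydroxylase that directs synthesis to cholic acid, read 9.65, 10.75, 10.32 and 10.68 in sham and 7.74, 7.29, 7.43, 7.10 and 7.07 in ligated livers, a change of -3.02 (SE 0.38, adjusted p = 7.01e-07). Cyp7b1, the oxysterol hydroxylase of the alternative route, read 10.18 to 11.37 and 7.84 to 8.33, a change of -2.79 (SE 0.26). Both enzymes were lower in every ligated liver. Cyp27a1, which opens the alternative route, changed by -0.39 (adjusted p = 0.0264) with overlap, a call lost in 5 of 9 leave-out fits (up to 0.0788 without sham replicate 4). Acox2, which shortens the side chain, was higher by 0.48 (SE 0.12), a call lost with sham day 3 as control (0.15, adjusted p = 0.552), the other rise was lost in 4 such fits, and the conjugating genes Baat (-0.13) and Slc27a5 (-0.36, adjusted p = 0.0547) did not pass the test.

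Uptake carriers fell and basolateral export pumps rose. Of 9 uptake genes tested, 5 were lower and 1 higher (median -0.997), where 7.9% and 17.3% of all genes were. Slc10a1, the sodium-dependent bile acid carrier NTCP, read 11.63, 12.15, 12.24 and 12.19 in sham and 11.43, 10.93, 11.24, 10.72 and 10.95 in ligated livers, a change of -0.997 (SE 0.22, limma adjusted p = 0.00088). The highest ligated liver lay just under the lowest sham liver, and with sham day 1 as control the change was -0.56 and not called (adjusted p = 0.0609). Slco1b2, another organic anion carrier, changed by -1.02 and Slc22a7 by -1.57, the latter with overlap. Slco1a4, a carrier of the same family as Slco1a1, rose by 0.91 (adjusted p = 0.0307), a call lost in 5 of 9 leave-out fits (up to 0.121 without sham replicate 4). Of 5 sinusoidal export genes, Abcc1, Abcc3, Abcc4 and Abcc5 were higher and Abcc6 lower (median 0.84), the call of Abcc5 being lost with sham day 3 as control (limma adjusted p = 0.0619). Abcc4, the pump MRP4 that returns bile acids to blood, read 5.88, 5.28, 5.14 and 5.62 in sham and 6.31, 6.34, 6.11, 6.53 and 6.28 in ligated livers, a change of 0.84 (SE 0.15, adjusted p = 7.82e-05), and Abcc3, the pump MRP3, rose by 0.95 (SE 0.13). Both were higher in every ligated liver. Of 11 genes of the canalicular membrane, 1 was higher and 2 were lower, where 17.3% and 7.9% of all genes were. Abcb11, the bile salt export pump, averaged 11.29 ± 0.14 (SD, n = 4) and 11.41 ± 0.24 (SD, n = 5), a change of 0.12 (SE 0.21, adjusted p = 0.744). Abcc2, the pump MRP2, changed by -0.35 with overlap and the sterol transporter gene Abcg8 by -0.48, and both calls were lost in leave-out fits, in 1 (0.0650 without sham replicate 4) and in 5 (up to 0.0924 without sham replicate 3). Abcb1a, a multidrug transporter, was the one that rose, by 1.75 (SE 0.23), with no overlap.

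The bile acid sensor Nr1h4 (FXR) changed by -0.63 (SE 0.12, limma adjusted p = 0.000166), and its target Nr0b2 (SHP) averaged 8.27 ± 1.17 (SD, n = 4) in sham and 8.43 ± 0.18 (SD, n = 5) in ligated livers, which did not pass the test. The sham values of Nr0b2 ranged from 7.07 to 9.79. In conjugation, 9 of 17 sulfotransferase and glucuronosyltransferase genes were lower and 2 higher (median -0.67), where 7.9% and 17.3% of all genes were. Ugt2b1 changed by -2.38 and Sult5a1 by -2.23, while Sult1a1 rose by 1.00 and Sult1e1 as described. Ugt2b genes are close copies of each other.

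Hepatocyte regulators were lower in part. Of 19 transcription factor genes, 6 were lower and 1 higher (median -0.28), where 7.9% and 17.3% of all genes were. Ppara, which drives fatty acid oxidation, read 8.61, 9.31, 8.98 and 9.11 in sham and 8.23, 7.30, 7.65, 7.54 and 7.39 in ligated livers, a change of -1.38 (SE 0.14, limma adjusted p = 3.35e-08). No ligated liver reached the sham range, and replicate 1 was the highest of the 5. Cebpa, a factor of the differentiated hepatocyte, changed by -0.69 (SE 0.13), and by -0.40 with sham day 3 as control, which was not called (adjusted p = 0.0808). Hnf4a, the central hepatocyte factor, changed by 0.12 and did not pass the test. The single rise of the list was lost in 6 of 9 leave-out fits. Onecut1 was called (-1.55, adjusted p = 0.0425), but its sham livers read 10.69, 7.56, 10.86 and 7.03 and the ligated livers 7.28 to 7.98. That call was lost in 6 of 9 leave-out fits (up to 0.238, with a change of -0.95, without sham replicate 3), and the change was -2.22 without sham replicate 4.

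Of 20 genes of fatty acid oxidation 11 were lower and 1 higher (median -0.52), where 7.9% and 17.3% of all genes were. The rise was lost in 5 of 9 leave-out fits. Fabp1, which carries fatty acids in the cytosol, was 12.46 to 12.55 in sham livers and 8.23, 9.23, 8.01, 9.74 and 9.11 in ligated livers, a change of -3.65 (SE 0.38). The sham livers hardly varied, the ligated livers did, and the groups did not overlap. Acaa1b, a peroxisomal thiolase, changed by -1.55 (SE 0.29) and Cpt2, which admits long-chain fatty acids to mitochondrial oxidation, by -0.83 (SE 0.11). Cpt1a (-0.29) and Ehhadh (0.02) did not pass the test. In fatty acid synthesis and storage, 5 of 22 genes were lower and 2 higher, a share of rises below that of all genes. A call was lost for 1 of the rises in 4 of 9 leave-out fits. Those that fell included Mlxipl, the carbohydrate response factor (-1.28), Thrsp (-1.40) and Me1, malic enzyme (-1.26), whereas Fasn (0.10) and Scd1 (-0.11) were not called. The calls of Thrsp and Me1 depended on the control. Thrsp changed by -0.61 with sham day 3 (limma adjusted p = 0.224) and by -0.01 with sham day 1 (adjusted p = 0.972), and Me1 by -0.19 with sham day 1 (adjusted p = 0.449). Fasn was called higher with either, by 1.09 and 1.12. Cd36, a fatty acid translocase also present on macrophages, read 8.49, 8.03, 7.66 and 8.09 in sham and 10.01, 9.73, 10.03, 9.98 and 9.84 in ligated livers, a change of 1.85 (SE 0.21). All ligated livers were above all sham livers.

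Of 18 genes of cholesterol synthesis 4 were higher and 3 lower, where 17.3% and 7.9% of all genes were, so the share of rises was near the background. Lss, the cyclase that forms lanosterol, rose by 1.14 (SE 0.31, limma adjusted p = 0.00616) and Hmgcs1 by 1.01 (SE 0.30), while Tm7sf2, a sterol reductase gene, changed by -0.83, a call lost with sham day 1 as control (-0.32, adjusted p = 0.0532). Of 14 genes of glucose metabolism 4 were higher and 2 lower (median 0.08). The liver glycogen synthase gene Gys2 (-1.27) and the liver pyruvate kinase gene Pklr (-1.06) were lower, and Pkm (1.47), Hk2 (0.97), Hk1 (0.59) and the glucose carrier gene Slc2a1 (1.01), which are common outside hepatocytes, were higher. With sham day 1 as control Gys2 changed by -0.22 (limma adjusted p = 0.523) and Pklr by 0.35 (adjusted p = 0.348), and with sham day 3 Pklr changed by -0.60 (adjusted p = 0.226) and Slc2a1 by 0.70 (adjusted p = 0.0813), none of which was called. Pck1, which controls gluconeogenesis, changed by 0.13 and was not called.

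Genes of the pericentral zone, the hepatocytes around the central vein, were often lower. Of 19 pericentral genes 11 were lower and 1 higher (median -0.61), and of 13 periportal genes 2 were higher and the other 11 not called (median 0.15), and the difference between these counts was not tested. Of all genes 17.3% were higher and 7.9% lower, so the share of periportal rises was near the background. Without sham day 7 replicate 4 the pericentral count was 7, and without BDL day 21 replicates 1 and 2 together it was also 7. Glul, glutamine synthetase of the innermost ring, read 10.84, 11.45, 11.57 and 11.42 in sham and 10.19, 10.49, 10.44, 10.02 and 9.90 in ligated livers, a change of -1.11 (SE 0.29, limma adjusted p = 0.00433). Cyp2e1, an ethanol-oxidising cytochrome, changed by -0.85 (SE 0.11) and Cyp2c37 by -1.83 (SE 0.21). These 3 genes did not overlap between the groups. Cyp1a2, a drug-metabolising enzyme, changed by -1.48 (adjusted p = 0.0372) without overlap, a call lost in 7 of 9 leave-out fits (up to 0.0956 without sham replicate 4). Slc13a3, a dicarboxylate carrier, was the one that rose, by 1.21, a call lost with sham day 1 as control (0.71, adjusted p = 0.0584). Among the periportal genes, Cdh1, E-cadherin, rose by 0.73, and the urea cycle genes Cps1 (0.28), Otc (-0.38) and Arg1 (0.20) were not called. Of 19 further cytochrome P450 genes 7 were lower and 1 higher, the latter being Cyp26a1, which degrades retinoic acid (1.61, SE 0.34, and 0.89 with sham day 1 as control, where its adjusted p was 0.0605), and Cyp3a11, the main drug-metabolising enzyme of its family, changed by 0.36 without being called. Cyp2c genes have near-identical neighbours.

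Male-biased genes formed the list with the largest share of falls among the 42 lists. Of 17 genes tested, 15 were lower and the other 2 not called, with a median of -2.14, and averaged per array the list stood at 8.53, 9.50, 9.41 and 9.78 in sham livers and at 6.35, 6.32, 6.56, 6.60 and 6.44 in ligated livers. The lowest sham value was that of replicate 1, whose female-biased genes were the highest of its group at 7.80 against 6.67, 6.99 and 6.88. Beside the genes already given, Cyp2d9 changed by -1.61 with overlap and Selenbp2 by -1.13, and Serpina12 (-0.73) was not called. Of 9 female-biased genes 4 were higher and the other 5 not called. For both lists the shares of all genes were 17.3% higher and 7.9% lower. Fmo2, a flavin monooxygenase, rose by 1.54 (SE 0.36) and Trim24 by 0.83 (SE 0.21). With sham day 3 as control neither was called, at 0.95 (limma adjusted p = 0.155) and 0.28 (adjusted p = 0.519).

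Of 29 genes for secreted plasma proteins, 7 were lower and 2 higher, where 7.9% and 17.3% of all genes were. The median was -0.04. Serpina6, the corticosteroid carrier, changed by -1.82 (SE 0.55), Mbl2, a mannose-binding lectin, by -1.36 (SE 0.27) and F11, a clotting factor, by -0.61. The call of Serpina6 was lost with sham day 3 (-1.04, limma adjusted p = 0.336) and sham day 1 (-1.35, adjusted p = 0.0782) as control, and that of F11 with sham day 1 (adjusted p = 0.0521). Haemopexin, Hpx, rose by 0.43. Ttr read 13.69, 13.70, 13.64 and 13.74 in sham and 13.42, 13.47, 13.51, 13.50 and 13.52 in ligated livers, a difference of -0.21 without overlap that was not past the test (limma adjusted p = 0.0579). With cyclic loess scaling, 11 of these genes were lower.

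**Figure D2:**
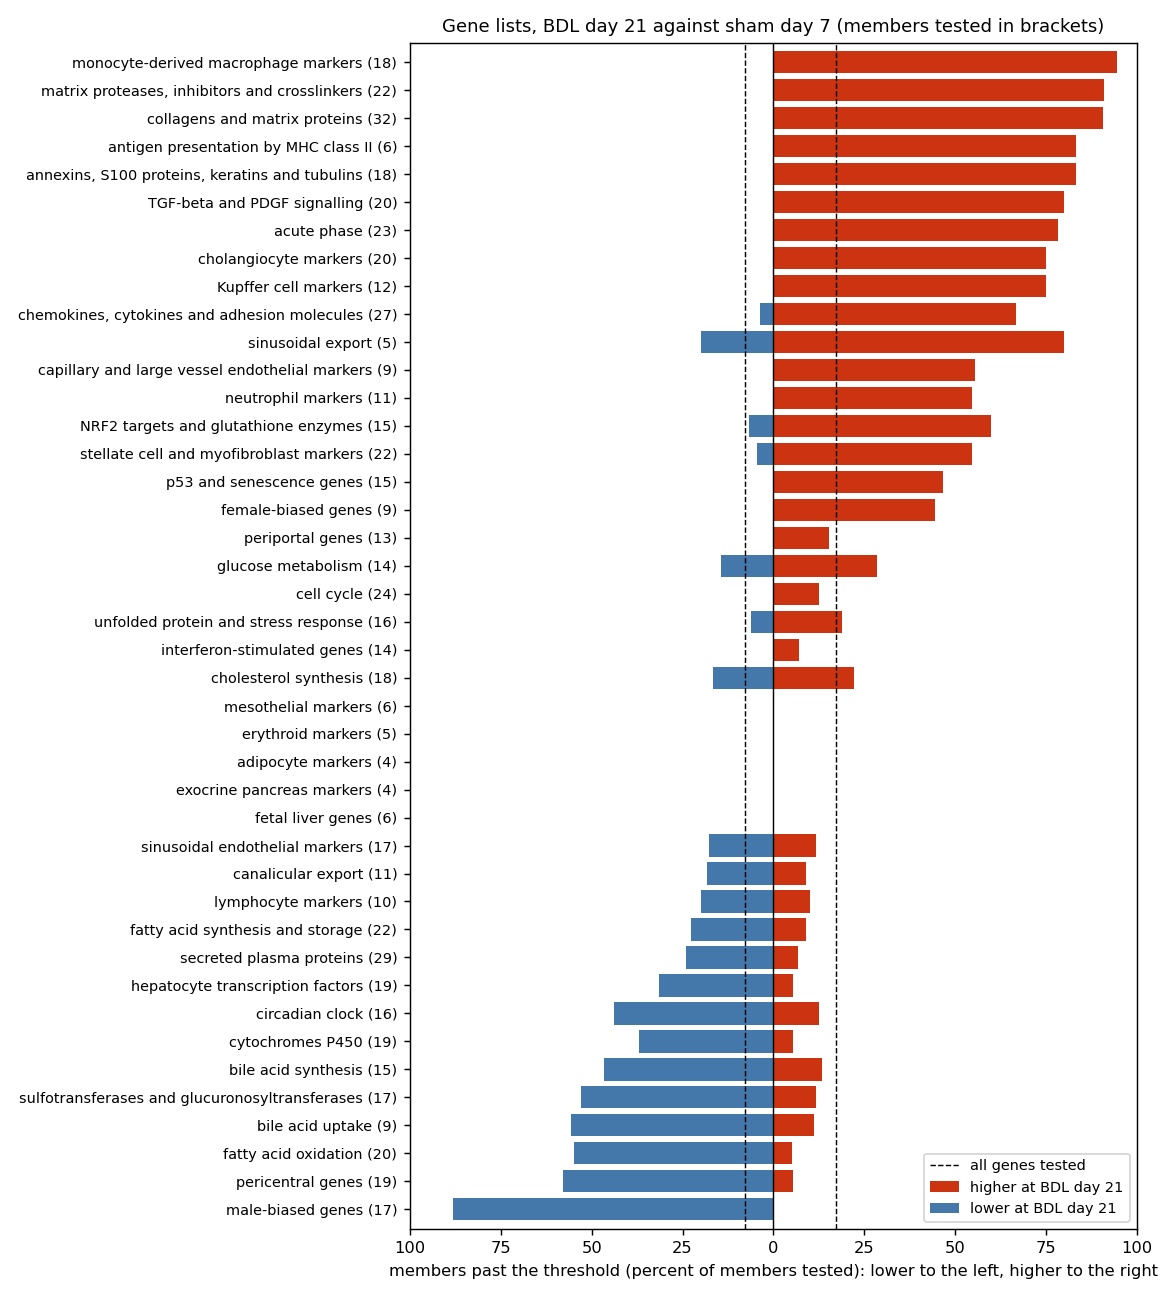
Percent of the members tested of 42 gene lists (rows, number tested in brackets) that were higher (red, to the right) or lower (blue, to the left) at BDL day 21 than in sham day 7 at a limma adjusted p under 0.05; dashed lines mark all genes tested, 17.3% higher and 7.9% lower. Monocyte-derived macrophage, protease and collagen lists lie at the right end and male-biased genes at the left end.

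Markers of bile duct epithelium were higher. Of 20 cholangiocyte marker genes tested, 15 were higher and the other 5 not called, with a median of 1.22, against 17.3% higher among all genes. Krt19, a keratin of ducts, read 5.49, 5.31, 5.53 and 5.43 in sham and 6.48, 6.39, 6.40, 6.79 and 6.41 in ligated livers, a change of 1.05 (SE 0.13, limma adjusted p = 2.74e-07). Sox9, a factor of ducts and of hepatocytes that take on ductal features, rose by 1.68 (SE 0.25), Epcam, an epithelial adhesion molecule, by a least step of 1.27 and Krt7 by 0.94 (SE 0.20). For these 4 genes no ligated liver overlapped with a sham liver. Also among the largest rises of the list were Elf3, an epithelial transcription factor (least step 2.30), Bicc1 (2.08), Prom1, a surface protein of progenitor cells (least step 1.49), and Cd24a (1.81). Cftr, the chloride channel of duct secretion, was below 5 in sham livers and between 4.89 and 5.60 in ligated livers. Sctr, the secretin receptor gene, lay near the filter and was not called. At BDL day 7 the same list had averaged 6.17 to 6.41 per array, and at day 21 it averaged 6.39 to 6.76. Between these 2 ligation days 0 of the 20 genes were called in either direction. Only 0.864% of all genes were, so a count of 0 says little about this list. Its median change between these days was 0.29, against 0.001 over all genes.

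Nearly all matrix genes were higher. Of 32 collagen and matrix genes, 29 were higher and the other 3 not called (median 1.02), against 17.3% higher among all genes. The fibrillar collagen gene Col1a1 read 10.43, 6.17, 7.38 and 6.16 in sham and 10.11, 10.46, 9.88, 10.37 and 10.42 in ligated livers, a change of 2.71 (SE 0.51, limma adjusted p = 0.000163). The first sham liver lay inside the ligated range, and without it the change was 3.68. Col3a1 showed the same sham animal at 9.23 against 6.45, 7.31 and 6.38, with the ligated livers at 9.47 to 10.02, and changed by 2.38 (SE 0.37), or 3.01 without that animal. Nid1, nidogen of basement membranes, read 8.28, 7.49, 7.62 and 7.64 in sham and 10.82, 10.50, 10.77, 10.66 and 10.84 in ligated livers, a change of 2.96 (SE 0.20). It separated the groups by more than 2 log2 units. The matricellular gene Thbs1 rose by 2.19, the proteoglycan gene Lum by 2.16, and the basement membrane collagen genes Col4a1 by 1.42 and Col4a2 by 1.39. Fn1, fibronectin, which hepatocytes also secrete, changed by 0.29 and was not called. Without sham replicate 1, 29 of the 32 genes were higher as well.

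Of 22 genes for proteases, their inhibitors and crosslinkers, 20 were higher and the other 2 not called (median 1.21), against 17.3% higher among all genes. Timp1, the inhibitor most used as a sign of fibrosis, read 5.61, 4.02, 4.42 and 4.39 in sham and 6.97, 6.67, 7.20, 7.36 and 7.12 in ligated livers, a change of 2.45 (SE 0.25) with a least step of 2.06. Mmp12, the macrophage elastase, rose by a least step of 2.06, Tgm2, a transglutaminase that crosslinks matrix, by 2.17, Mmp7, matrilysin of epithelium, by 2.08 (1.10 with the mean of its rows) and Mmp14, the membrane-type protease, by 1.64. All 5 genes were higher in every ligated liver. The crosslinking enzyme gene Lox (least step 1.01) and Mmp2 (1.38) overlapped with sham replicate 1, and Mmp19 (0.11) and Mmp23 (0.32) were not called. In the growth factor list 16 of 20 genes were higher (median 0.92). Tgfb1 rose by 1.21 (SE 0.19), Tgfb2 by 1.56 (SE 0.15) and Tgfb3 by 1.04 (SE 0.22, with overlap), the receptor gene Tgfbr2 by 1.28, the ligand gene Pdgfc by 1.40 and the target gene Ccn2 by 1.07. Tgfb2 read 5.48, 5.59, 5.44 and 5.30 in sham and 6.84, 6.93, 6.87, 7.11 and 7.31 in ligated livers. Bambi, a decoy receptor that damps TGF-beta signals, changed by -0.11.

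Markers of stellate cells and myofibroblasts rose in part, 12 of 22 higher and 1 lower (median 0.60), where 17.3% and 7.9% of all genes were. The receptor gene Pdgfrb read 7.26, 6.62, 6.59 and 7.00 in sham and 8.07, 8.59, 8.98, 9.12 and 8.61 in ligated livers, a change of 1.81 (SE 0.24, limma adjusted p = 1.76e-06). Cygb, cytoglobin of stellate cells, rose by 1.59, Vim, vimentin, by 1.57 and Pdgfra by 1.51. Acta2, smooth muscle actin, read 9.16, 7.53, 7.44 and 7.31 in sham and 8.80, 8.78, 8.47, 9.04 and 8.54 in ligated livers. Sham replicate 1 was above every ligated liver, and the change was 0.87 (SE 0.27, adjusted p = 0.0189), or 1.30 (adjusted p = 4.78e-05) without it. With that animal kept, the call was lost in 4 leave-out fits (up to 0.0955 without sham replicate 4). Des, desmin, changed by 0.28 and was not called, and Ecm1 changed by -0.94, or by -0.12 with sham day 1 as control, which was not called (adjusted p = 0.592).

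Acute phase genes, which hepatocytes turn on in inflammation, were higher. Of 23 genes, 18 were higher and the other 5 not called (median 1.08), against 17.3% higher among all genes. The sham livers differed widely here, the list averaging 9.62, 9.97, 10.32 and 8.86 per array, while the ligated livers lay at 11.15, 11.04, 11.24, 10.81 and 10.93. Lcn2, lipocalin that binds bacterial iron carriers, read 9.03, 10.56, 12.01 and 8.70 in sham and 12.88 to 13.18 in ligated livers, a change of 2.97 (SE 0.39, limma adjusted p = 1.32e-06), or 3.61 without sham replicate 3. Orm2, an orosomucoid, rose by 2.73 (SE 0.30) and Osmr, the oncostatin M receptor, by 1.96 (SE 0.28). Mt2, a metallothionein, read 11.28, 11.98, 12.52 and 8.15 in sham and 12.75 to 13.05 in ligated livers. Its change of 1.93 (adjusted p = 0.00802) became 0.98 (adjusted p = 0.0626) without sham replicate 4. Orm genes are close copies. Saa3, a serum amyloid gene of macrophages and stressed tissue, read 7.13, 6.30, 6.73 and 5.81 in sham and 7.76, 6.97, 8.00, 6.91 and 7.02 in ligated livers, which was not called (0.84, adjusted p = 0.110), and hepcidin, Hamp, changed by 0.15. With sham day 1 in place of sham day 7, 7 members were higher and 2 lower. Lcn2 then changed by 0.86 (limma adjusted p = 0.114), Orm2 by 0.49 (adjusted p = 0.240) and Mt2 by 0.75 (adjusted p = 0.319), and Saa3 was lower, by -1.98 (adjusted p = 0.000477). With sham day 3 Mt2 was not called (adjusted p = 0.0582).

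Chemokine, cytokine and adhesion genes rose as well, 18 of 27 higher and 1 lower (median 1.00), where 17.3% and 7.9% of all genes were. Ccl2, which draws monocytes, read 5.79, 5.24, 5.63 and 5.74 in sham and 8.21, 8.55, 7.82, 8.19 and 7.83 in ligated livers, a change of 2.52 (SE 0.26, limma adjusted p = 3.53e-08). The groups were 2 log2 units apart at their nearest animals. Ccl6 rose by 2.32, Vcam1, which holds leukocytes to endothelium, by 1.85, Cxcl16 by 1.82 and Icam1 by 1.70. The neutrophil attractant gene Cxcl1 (0.54) was not called, and Cxcl13, the B cell attractant, was the one lower gene (-0.97, with overlap), a call lost in 6 of 9 leave-out fits (adjusted p up to 0.182 without sham replicate 2).

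Most macrophage markers were higher. Of 18 genes of monocyte-derived macrophages 17 were higher (median 1.70), and of 12 Kupffer cell genes 9 were higher (median 0.81). Among all genes the share was 17.3%. Trem2, a lipid receptor of scar-associated macrophages, read 5.77, 6.03, 5.41 and 5.09 in sham and 7.20, 7.47, 7.55, 7.53 and 7.68 in ligated livers, a change of 1.91 (SE 0.18, limma adjusted p = 6.90e-09). Cd68 rose by 1.97 (SE 0.23), Itgam by 1.93 (SE 0.22), and the monocyte receptor gene Ccr2, below 5 on average in sham livers, by a least step of 1.48. None of these overlapped. Fabp5 (-0.67, adjusted p = 0.0856) was the member that was not called, although every ligated liver lay below every sham liver. Among Kupffer cell genes, Marco, a scavenger receptor, rose by 2.40 (SE 0.27), Cd5l by 1.53 and the complement receptor gene Vsig4 by 1.41, while Clec4f and Timd4, markers of the resident population, changed by 0.65 and 0.59 with overlap, the latter call being lost in 6 of 9 leave-out fits (adjusted p up to 0.150 without sham replicate 1). Of 11 neutrophil genes 6 were higher, but they were uneven among the ligated livers. S100a8 read 4.90, 6.13, 4.61, 6.56 and 4.71 in ligated livers against 4.09 to 4.66 in sham, with replicates 2 and 4 high. Its least step was 0.38, its call was lost in 4 of 9 leave-out fits (adjusted p up to 0.0981 without BDL day 21 replicate 4), and without that liver 3 of the 11 genes were higher.

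Genes of antigen presentation were higher than in sham livers and rose again after day 7. Of 6 genes for MHC class II presentation tested, 5 were higher (median 1.43), against 17.3% higher among all genes. H2-Ab1, a class II beta chain, read 8.91, 8.61, 8.02 and 7.90 in sham and 10.40, 10.89, 10.45, 11.52 and 11.20 in ligated livers, a change of 2.53 (SE 0.32, limma adjusted p = 6.94e-07). H2-Aa rose by 2.35 (SE 0.27), H2-Eb1 by 1.57 (SE 0.21) and H2-DMa, which loads peptide, by 1.28 (SE 0.21). For these 4 genes the groups did not overlap, and replicates 4 and 5 were the highest of the ligated livers. Ciita, the master regulator of class II genes, rose by 0.44 (SE 0.13, adjusted p = 0.00935). From BDL day 7 to BDL day 21 the 3 chain genes rose again, H2-Ab1 by 1.29 (adjusted p = 0.0331), H2-Aa by 1.19 (adjusted p = 0.0146) and H2-Eb1 by 1.09 (adjusted p = 0.00416). The call of H2-Eb1 held when each single liver was left out, and those of H2-Ab1 and H2-Aa were lost in 7 and 4 of 10 such fits (adjusted p up to 0.136 and 0.0676). Ciita changed by 0.33, which did not pass (adjusted p = 0.334). Class II promoters share a conserved upstream element that includes a CCAAT box, and the windows of H2-Aa (minus strand, chr17:34287774-34288073) and H2-Eb1 (plus strand, chr17:34305617-34305916) are shown with that box, searched as CCAATCA, read on the other strand as TGATTGG, in capitals.
H2-Aa: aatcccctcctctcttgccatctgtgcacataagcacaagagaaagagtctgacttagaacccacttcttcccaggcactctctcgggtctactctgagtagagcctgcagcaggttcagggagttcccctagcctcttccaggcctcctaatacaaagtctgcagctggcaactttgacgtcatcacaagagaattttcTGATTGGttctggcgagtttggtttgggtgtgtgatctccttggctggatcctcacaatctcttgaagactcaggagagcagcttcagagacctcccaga
H2-Eb1: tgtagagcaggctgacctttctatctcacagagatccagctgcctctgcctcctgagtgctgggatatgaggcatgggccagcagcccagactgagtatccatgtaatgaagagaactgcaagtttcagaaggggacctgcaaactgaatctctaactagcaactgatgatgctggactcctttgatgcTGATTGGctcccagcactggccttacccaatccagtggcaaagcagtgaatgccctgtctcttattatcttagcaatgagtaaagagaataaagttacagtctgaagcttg
The box begins 50 and 61 bases before the start in H2-Aa and H2-Eb1. By itself it is common, in 10.6% of the windows of genes tested and in 8.97% of those of genes that rose at least 2-fold.

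Lymphocyte markers gave no common direction, with 1 of 10 higher and 2 lower, where 17.3% and 7.9% of all genes were. The B cell receptor gene Cd79a was lower, near the filter, by a least step of 0.21. That step rests on sham replicate 2, at 5.87, as the next highest sham liver read 5.01. The call was lost with sham day 3 (limma adjusted p = 0.0849) and sham day 1 (adjusted p = 0.373) as control. Cd4, the helper T cell co-receptor, changed by -0.64, a call lost in 4 of 9 leave-out fits (adjusted p up to 0.0881 without sham replicate 2), and Cd3e, part of the T cell receptor complex, by 0.22 without being called. Antibody genes went the other way. Jchain, which joins secreted IgA and IgM, read 4.08, 4.41, 3.62 and 4.22 in sham, 3.75 ± 0.42 (SD, n = 5) at BDL day 7 and 5.12, 5.71, 5.02, 5.95 and 5.49 at BDL day 21, a least step of 0.46 against either group. Of 10 immunoglobulin gene segments tested, 6 were higher than in sham livers and 7 higher than at BDL day 7. Against BDL day 7, 0.401% of all genes were higher. Igh-VS107 rose by 1.83 against sham (1.19 with the mean of its rows) and by 1.60 against BDL day 7 (SE 0.20, limma adjusted p = 2.56e-05), and Ighm, the IgM heavy chain, by 0.54 and by 1.04, its call against sham being lost in 5 of 9 leave-out fits (adjusted p up to 0.129 without sham replicate 3). Segments resemble each other, so single ones are uncertain. Of 14 interferon-stimulated genes Oasl2 alone was higher (0.69), a call lost in 4 of 9 leave-out fits (adjusted p up to 0.0891 without BDL day 21 replicate 1), and Ifit1 (-0.46) was not called.

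Several stress programmes were examined. Of 15 NRF2 targets and glutathione enzymes 9 were higher and 1 lower (median 0.53), where 17.3% and 7.9% of all genes were. Gstm3, a glutathione transferase, read 9.85, 9.36, 9.43 and 10.00 in sham and 12.38, 12.28, 12.27, 12.62 and 12.34 in ligated livers, a change of 2.72 (SE 0.46, limma adjusted p = 4.34e-05), with Nqo1 (1.47), Hmox1, haem oxygenase (1.41), and Srxn1 (1.07) also higher and Gstp1 lower (-0.65). The glutathione synthesis genes Gclc (-0.37) and Gclm (0.19) were not called, and Gstm genes are close copies. The unfolded protein response list gave 3 of 16 higher and 1 lower, a share of rises near the background and a fall lost in 4 of 9 leave-out fits, with Hspa5, its main chaperone, at -0.01. Of 15 p53 and senescence genes 7 were higher, led by Cdkn1a, the cell cycle inhibitor p21, at 6.24, 6.23, 6.25 and 6.26 in sham and 8.72, 8.62, 9.89, 9.23 and 9.43 in ligated livers, a change of 2.93 (SE 0.30, adjusted p = 1.90e-08). The sham livers hardly differed and every ligated liver was far above them. Without sham day 7 replicate 3, 4 of the 15 genes were higher. Annexin, S100, keratin and tubulin genes rose in 15 of 18 cases (median 1.35). Anxa2 rose by 2.66, Krt8 by 2.15 and Krt18 by 2.05, the keratin pair of hepatocytes and ducts, and Anxa5 by 2.11.

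Cell cycle genes were lower at day 21 than at day 7 of ligation. Of 24 genes 3 were higher than in sham, Ccnd1, cyclin D1 (1.19), and the replication licensing genes Mcm6 (0.81) and Mcm2 (0.63), where 17.3% of all genes were higher. Without BDL day 21 replicate 4 or without sham replicate 3 the count was 1, and over all 9 leave-out fits the call of Mcm6 was lost in 4 and that of Mcm2 in 2 (adjusted p up to 0.0796 and 0.0620, both without BDL day 21 replicate 4). Mki67, a marker of cycling cells, read 6.22, 6.07, 5.89 and 5.90 in sham, 7.63 ± 0.49 (SD, n = 5) at BDL day 7 and 6.70, 6.66, 5.86, 6.91 and 6.36 at day 21. Against sham it changed by 0.48 and was not called (limma adjusted p = 0.137), and against BDL day 7 the change was -1.13 (SE 0.22, adjusted p = 0.00615). Of the list, 9 genes were lower than at BDL day 7, among them the cyclin genes Ccnb2 (-1.36) and Ccna2 (-1.07) and the topoisomerase gene Top2a (least step 1.02), where 0.463% of all genes were lower between those days. The calls of Mki67 and Ccnb2 held when each single liver was left out, and those of Top2a and Ccna2 were lost in 5 and 4 of 10 such fits (adjusted p up to 0.0886 and 0.0914).

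**Figure D3:**
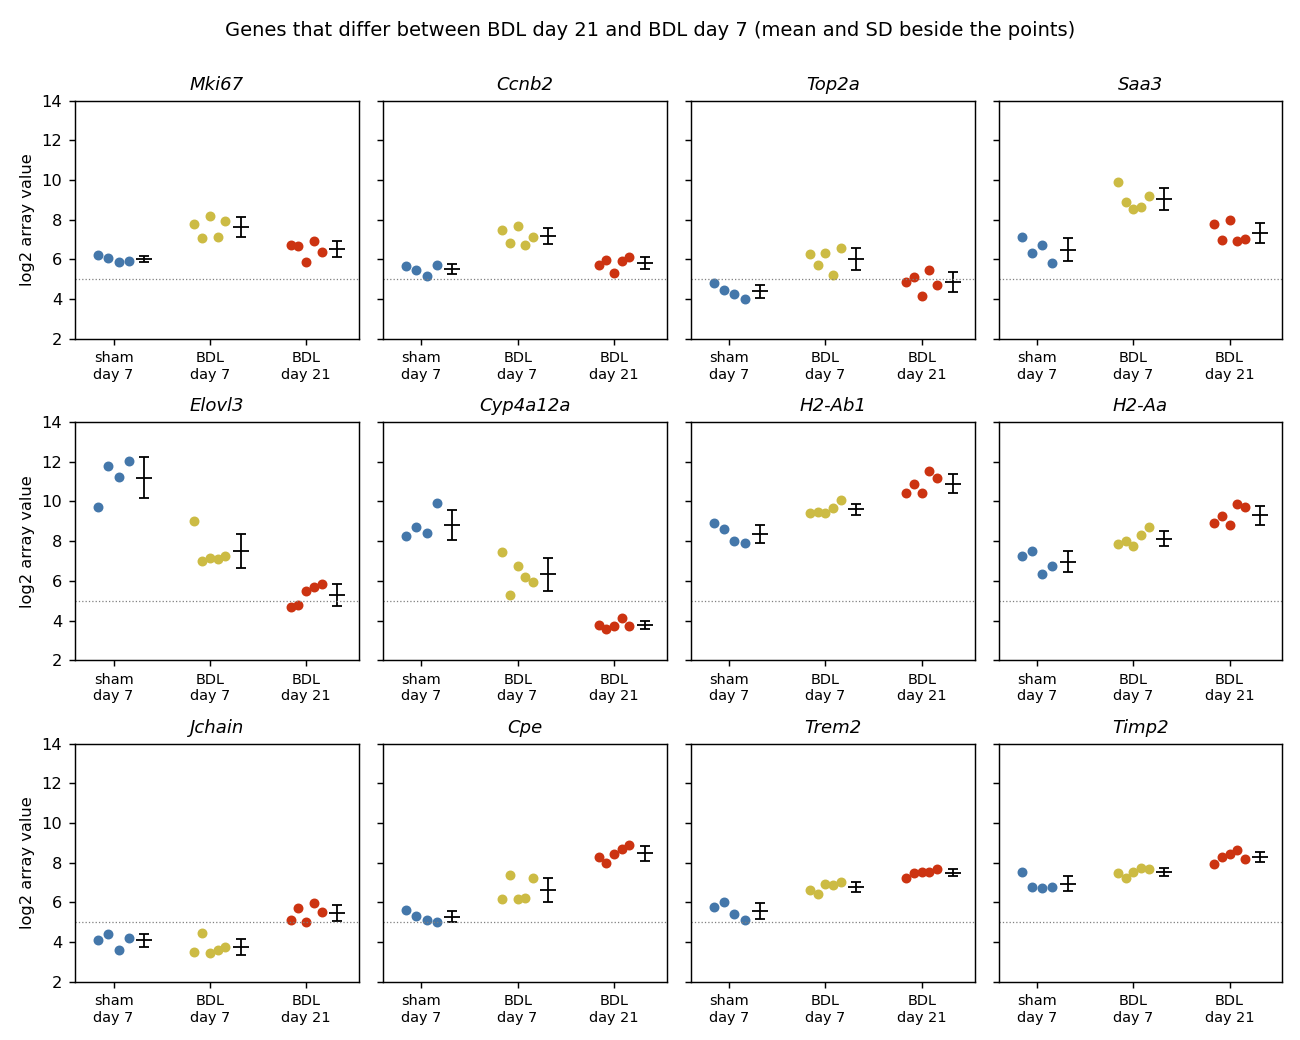
Log2 array value (vertical axis) of 12 genes in sham day 7 (blue), BDL day 7 (yellow) and BDL day 21 (red), 1 point per liver with the group mean and SD beside the points and the filter at 5 as a dotted line. Mki67, Ccnb2, Top2a and Saa3 stood higher at BDL day 7 than at day 21, and H2-Ab1, H2-Aa, Jchain, Cpe, Trem2 and Timp2 stood highest at day 21.

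Few genes differed between the last 2 ligation days. In the test of BDL day 21 against BDL day 7, 127 of 14699 genes (0.864%) were called, 59 higher (0.401%) and 68 lower (0.463%), while each day against the same sham livers gave 3698 (25.2%) and 2819 (19.2%) called genes. Of the 59, 56 were also higher than in sham at day 21, and of the 68, 19 were lower than in sham, 1 was higher and 48 were not called against sham. Of all genes 17.3% were higher and 7.9% lower than in sham. Both tests use the same BDL day 21 livers, so part of this overlap is built in. The count of 127 was 65, 78 and 63 without BDL day 21 replicates 3, 4 and 5, and 70 and 59 without BDL day 7 replicates 1 and 3. Of 32 genes named here that were called between the ligation days, 13 held in every fit without 1 liver and 19 were lost in some. Between the ligation days Cpe, a carboxypeptidase of secretory granules, rose by 1.83 (SE 0.34, limma adjusted p = 0.00515), and Mfge8 by 0.96. Among matrix genes Timp2 (0.75), Plat (0.64) and Adamtsl2 (0.70), among growth factors Tgfb2 (0.64), Tgfb3 (0.82) and Bmp6 (0.50), and among macrophage genes Trem2 (0.72), Ms4a7 (0.84) and Cx3cr1 (0.62) were higher at day 21. The call of Cpe held in every leave-out fit, and those of the other genes were each lost in 1 to 9 of 10 such fits, with adjusted p of up to 0.181. Of 17 male-biased genes 5 were called lower than at day 7. Elovl3 changed by -2.22 and Mup20 by -0.65, Cyp4a12a and Slco1a1 fell below the filter by least steps of 1.32 and 0.54, and Mup21 averaged below 5 at both days, so its change has no size here. Sult2a8 was lower by a least step of 1.18, and Mup3 (-2.03), Serpina1e (-1.22) and Fabp1 (-1.55) were lower as well. Of these 9 genes, Mup21, Mup20 and Fabp1 lost their calls in 7, 1 and 6 of 10 leave-out fits. Cyp4a12a had read 6.32 ± 0.82 (SD, n = 5) at BDL day 7 and lay at 3.56 to 4.11 at day 21. Saa3 changed by -1.70 (adjusted p = 0.0143), a call lost in 3 of 10 leave-out fits (up to 0.0675).

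**Figure D4:**
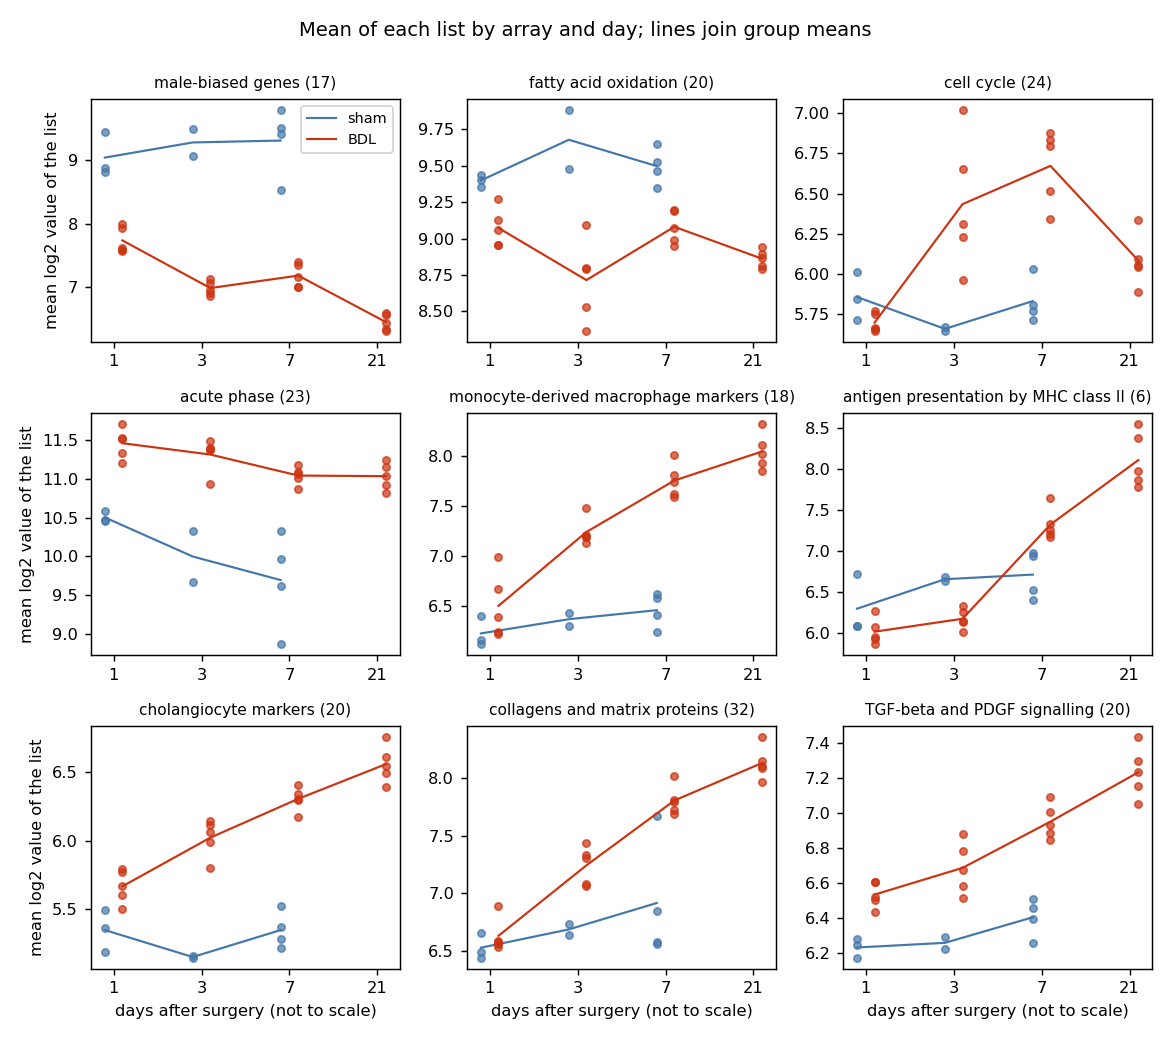
Mean log2 value over the members of 9 gene lists (vertical axis, number of members in brackets) for each of the 29 livers by days after surgery (horizontal axis, not to scale), sham in blue and BDL in red, with lines through the group means. Among the BDL livers the cell cycle mean was lower at day 21 than at day 7 while the means of macrophage, MHC class II, cholangiocyte, matrix and growth factor genes were highest at day 21 and that of male-biased genes lowest. In the test of BDL day 21 against BDL day 7, 0 members of the cholangiocyte list and 0 of the collagen and matrix protein list were called. Only 0.864% of all genes were. The median changes of these lists were 0.29 and 0.33, against 0.001 over all genes.

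Of 9 genes of capillaries and large vessels 5 were higher (median 0.52), with Plvap, a protein of fenestral diaphragms, up by 1.16 (SE 0.24), Vwf by 0.92 and Edn1, endothelin, between 5.22 and 5.74 in ligated livers and below 5 in sham. Of 17 genes of sinusoidal endothelium, the fenestrated lining of the liver, 2 were higher and 3 lower. Of all genes 17.3% were higher and 7.9% lower. Kdr (-0.49), Oit3 (-0.53) and Dnase1l3 (-0.68) had adjusted p of 0.0477, 0.0448 and 0.0459 in the limma fit, and the calls were lost in 8, 8 and 7 of 9 leave-out fits, with adjusted p of up to 0.130, 0.128 and 0.111. With sham day 3 or sham day 1 as control none of the 3 was called, and with sham day 1 their changes were above 0. The rises fell to 0 without BDL day 21 replicate 2. Of 4 pancreas, 4 adipocyte, 6 mesothelial and 5 erythroid markers tested, 0 were called in either direction at an adjusted p under 0.05 in limma, and 1 passed an unadjusted p under 0.05. The mesothelial list averaged 6.08 in sham replicate 1 against 5.50, 5.33 and 5.58 in the other sham livers.

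Clock genes and a few tissue markers separated single ligated livers. Arntl, the core activator of the clock, read 6.13, 6.48, 5.92 and 6.93 in sham livers and 5.72, 8.45, 8.69, 8.53 and 8.34 in ligated livers, and its output Dbp 9.82, 9.61, 9.90 and 9.62 against 10.05, 7.38, 7.33, 7.48 and 8.03. Replicate 1 lay just outside the sham range for both genes, and the other 4 ligated livers lay apart on the opposite side. Usp2 followed the same split, at 9.41 in replicate 1 and 6.68 to 6.94 in the rest, and Per3 at 7.84 against 5.44 to 6.18. Of 16 clock genes 7 were called lower and 2 higher in the whole group, where 7.9% and 17.3% of all genes were. Without replicate 1 the change of Arntl was 2.14 in place of 1.58, and that of Dbp -2.18 in place of -1.68. With sham day 3 as control the change of Arntl was 1.37 and not called (limma adjusted p = 0.119), and with sham day 1 it was 0.76 (adjusted p = 0.260) and that of Dbp -0.22 (adjusted p = 0.736). The call of Arntl was lost without sham replicate 3 (adjusted p = 0.0540) and that of Per3 (-1.14) in 5 of 9 leave-out fits (up to 0.0788 without BDL day 21 replicate 3). The labels used here give no hour of tissue collection, so its part in these calls was not tested. The same liver had raised intestinal genes, Alpi, intestinal alkaline phosphatase, at 9.35 against 4.30 to 5.68, Muc3 at 8.14 against 5.08 to 5.79 and Prap1 at 7.58 against 4.39 to 5.45 in the other ligated livers. Replicate 2 held muscle genes, with Acta1, skeletal actin, at 9.50 against 5.75 to 5.93, Atp2a1 at 7.94 against 4.42 to 5.11 and Tnnt3 at 8.27 against 5.59 to 5.95. These 6 genes were not called between the groups in the limma fit. They were picked after their values were seen, from 11 intestinal and 8 muscle genes tested. Values of most other members in these livers are not given here. Of the 11, 1 was called higher and 1 lower between the groups, with changes from -1.55 to 1.23, and of the 8, 0 were called.

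**Figure D5:**
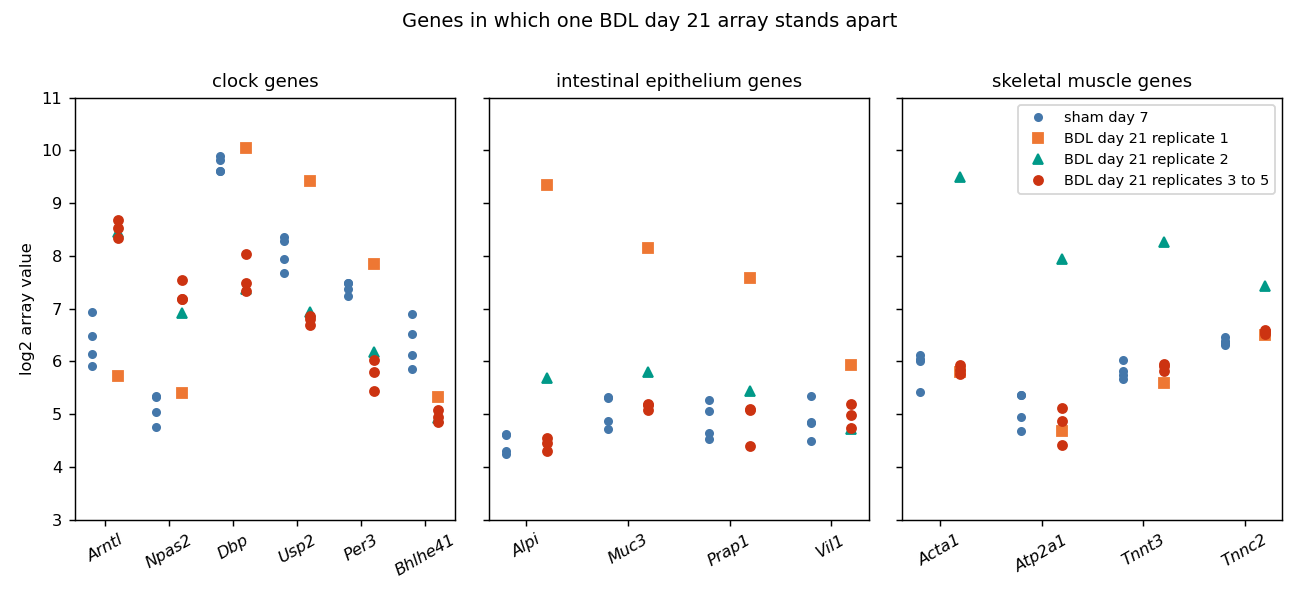
Log2 array value (vertical axis) of clock, intestinal epithelium and skeletal muscle genes (horizontal axis) in the 4 sham day 7 livers (blue) and the 5 BDL day 21 livers, with replicate 1 as orange squares, replicate 2 as green triangles and replicates 3 to 5 in red. Replicate 1 sits nearer the sham livers than the other ligated livers for Arntl, Npas2, Dbp and Per3 and above all others for Alpi, Muc3 and Prap1, and replicate 2 is above all others for the 4 muscle genes.

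Among the ligated livers the median SD over genes was 0.155, and 0.175 among the sham livers, and 19 and 43 genes had an SD above 1. The sham groups of other days were also set against sham day 7. Sham day 3 against sham day 7 gave 0 called genes in limma (627 at an unadjusted p under 0.05), with 2 against 4 livers. Sham day 1 against sham day 7 gave 604 (4.11%), and leaving out the 4 day 1 arrays of low spread, 2 of them sham, gave 1. That fit has 1 sham day 1 array, assumed to vary like the other groups, so it does not show what the arrays left out contributed to the 604. Of the 222 genes named, 28 lost their call with sham day 3 as control and 25 with sham day 1, 6 turned direction with sham day 1, and 6 lost their call against all 9 sham livers. Against all 9 sham livers 5362 genes differed from BDL day 21, and against the 6 of days 3 and 7, a control group chosen after the data were seen, 4309.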

How the data were processed

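RNA of whole liver from 29 mice was hybridised to 1-colour arrays, 1 array per animal. The submitters' processing notes name oligo 1.52.0 and RMA, so the deposited table holds log2 values that the authors had background-corrected, quantile-normalized and summarised per probe set. A Mouse Genome 430 2.0 array is named per the labels' protocols, whereas row identifiers matched the Mouse Gene 2.0 ST annotation. As for the build, none is given in the sources used here. For arrays the number of arrays limits the precision, and the median SE of the main comparison was 0.138.

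Of 41345 rows, 25335 were annotated, 23521 with 1 gene symbol, 1814 with several, which were not named, and 16010 rows had no name here. The table held 22180 genes, each by its row of highest mean. Genes above a log2 value of 5 on at least 3 arrays (14699) were tested with limma 3.58.1 in R 4.3.3 (lmFit and eBayes on 7 group means of all 29 arrays, Benjamini-Hochberg adjustment, threshold 0.05). On simulated data for the comparison of BDL day 21 with sham day 7 over 14699 genes, 95% of genes changed by 1 log2 unit and 100% of those changed by 2 were called, and 3.47% of calls were false. The simulated noise was normal, independent between genes and equal in all groups, and only 200 genes were changed. These rates hold for that setting and were not measured on the real data, where single livers stood apart. Samples were grouped by title, and the table had 0 columns of other samples.

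The 15 largest non-overlapping called changes in each direction, the 6 largest of the late comparison, up to 4 genes per list and a fixed set of bile acid, duct, matrix and inflammation genes were named by rule, and others, such as Usp2, Serpina1e, Ighm and the intestinal and muscle genes, were chosen after their values were seen. The members, the 42 gene lists and the motifs were chosen with earlier results of these data known, the motifs shown being 3 of 23 searched. Alternatives covered the filter, gene rows, scaling, arrays in the fit, variance model, array weights, the sham group used and each liver left out. Sequences are RefSeq's (GRCm38.p6).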

Additional observations from a re-analysis of the deposited data

Results flagged for a closer look

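For the named genes, groups of 4 or 5 livers were looked through for a lone liver far from the rest, and 32 of 444 groups had one. Some of these genes were chosen after their values were seen, so this count cannot be set against chance. In BDL day 21 replicate 1 these were the highest values of Alpi (9.35), Muc3 (8.14), Dbp (10.05), Usp2 (9.41), Cpt1a (11.26), Fmo2 (9.53), Gys2 (10.54) and Onecut1 (7.98) and the lowest of Arntl (5.72), Npas2 (5.41), Hmgcs1 (11.26) and Tgm2 (10.99). In BDL day 21 replicate 2 they were the highest values of the muscle genes Acta1 (9.50), Atp2a1 (7.94) and Tnnt3 (8.27). In replicate 3 of that group Chil3 (8.35) and Slc2a1 (8.74) were highest and Abcc2 (11.10) and Cib3 (9.85) lowest, in replicate 4 Krt19 (6.79) was highest and Pck1 (11.84) lowest, and in replicate 5 Nr1h4 (8.80) was lowest.

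In sham day 7 replicate 1 the matrix and myofibroblast genes Acta2 (9.16), Col4a2 (7.00) and Timp2 (7.51) were highest, and the hepatocyte genes Cyp2d9 (9.56), Slc10a1 (11.63) and Slco1b2 (11.26) lowest. Cd79a (5.87) was highest in sham day 7 replicate 2 and Plvap (8.26) in replicate 3, and Abcc1 (5.42) and Cyp7a1 (9.81) were lowest in replicate 4.

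The change against sham day 7 differed between BDL day 21 and BDL day 7 for 32 named genes, by the limma test of the difference between these days. The effect at day 21 was higher for Adamtsl2 (0.70), Bmp6 (0.50), Cpe (1.83), Cx3cr1 (0.62), H2-Aa (1.19), H2-Ab1 (1.29), H2-Eb1 (1.09), Igh-VS107 (1.60), Ighm (1.04), Jchain (1.71), Mfge8 (0.96), Ms4a7 (0.84), Plat (0.64), Tgfb2 (0.64), Tgfb3 (0.82), Timp2 (0.75) and Trem2 (0.72). It was lower for Ccna2 (-1.07), Ccnb2 (-1.36), Cyp2d13 (-1.17), Cyp4a12a (-2.54), Elovl3 (-2.22), Fabp1 (-1.55), Mki67 (-1.13), Mup20 (-0.65), Mup21 (-1.24), Mup3 (-2.03), Saa3 (-1.70), Serpina1e (-1.22), Slco1a1 (-1.62), Sult2a8 (-2.50) and Top2a (-1.17). A mean below the filter of 5 enters the differences of Cyp4a12a, Jchain, Slco1a1, Sult2a8 and Top2a, whose least steps are 1.32, 0.46, 0.54, 1.18 and 1.02, and both means of Mup21 lie below it. Of these 32 calls 19 were lost in at least 1 of 10 fits that left out single livers, that of Cyp2d13 in 7 (adjusted p up to 0.123 without BDL day 7 replicate 1).

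Among rows of the value table without a gene name here, 205 were higher and 247 lower at BDL day 21 than in sham day 7.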

How the results depend on the processing

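The count of 3698 genes changed between BDL day 21 and sham day 7 lay between 3120 and 3571 when single livers were left out, became 771 with a change of at least 2-fold required and 5554 with sham day 1 as control, and moved by less than 1.5 times in the other alternatives. The 127 genes between BDL day 21 and BDL day 7 became 235 with only the arrays compared in the fit, 463 with array weights, and 59 to 133 without single livers, the lowest without BDL day 7 replicate 3. The 604 genes between sham day 1 and sham day 7 became 1 without the 4 day 1 arrays of low spread, an alternative added after the data were seen that leaves 1 sham day 1 array, assumed to vary like the other groups, so the fall cannot be laid to the arrays left out. With sham day 1 as control, changes turned direction for Baat (0.48), Dnase1l3 (0.24), Kdr (0.24), Oit3 (0.37), Pklr (0.35) and Saa3 (-1.98), and 25 named genes lost their call, as 28 did with sham day 3, and the cause was not tested. Among them Lcn2 was 0.86, Orm2 0.49, Dbp -0.22 and Thrsp -0.01 with sham day 1. With the mean of a gene's rows Mmp7 was 1.10, Keg1 -2.20 and Igh-VS107 1.19. Of 178 named genes called in the main comparison, 157 kept the call in every fit without 1 liver. No paired analysis was possible because the titles give each animal its own number and replicate numbers follow accession order. Signal near a log2 value of 5 limits the size of changes in dim genes.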

Other observations

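Rows of the value table that carry no gene name here were tested in the same way. Of 8061 such rows past the filter, 205 (2.54%) were higher and 247 (3.06%) lower at BDL day 21 than in sham day 7, shares below those of named genes.

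Of 151 microRNA genes tested, 15 were lower and 0 higher at BDL day 21 at a limma adjusted p under 0.05. Their median change was -0.17. Of all genes 7.9% were lower, a share near that of the microRNA genes, and 17.3% were higher.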
